A study of Mus musculus with 21 samples.

Results

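Tph2, Slc6a4, Fev, Htr1a, Gata2 and Gata3 are genes of serotonergic neurons. Of these, Htr1a, Gata2 and Gata3 also act in neurons that make no serotonin. Serotonergic neurons lie in the raphe nuclei along the midline of the brainstem, a part of which belongs to the midbrain. The 6 genes were chosen by name, and 6 of 6 were listed in both deposited tables, out of 55592 gene identifiers in either table. All 6 passed the filter on low counts in both experiments.

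The midbrain of male C57BL/6 mice was profiled by RNA-seq after injections of MPTP, a neurotoxin that damages dopaminergic neurons, and of irisin, the released part of the membrane protein FNDC5. In the pre-treatment experiment, control mice received ddH2O for 10 days, MPTP mice received ddH2O for 5 days and then MPTP at 30 mg/kg for 5 days, and irisin+MPTP mice received irisin at 200 μg/kg for 5 days and then MPTP for 5 days. In the delayed treatment experiment, control mice received ddH2O for 10 days, irisin mice received ddH2O and then irisin, MPTP mice received MPTP and then ddH2O, and MPTP+irisin mice received MPTP and then irisin, each agent for 5 days at those doses. Each group had 3 mice, whose age was 6 weeks per the labels. The methods describe nigral tissue that was extracted by hand after perfusion, and no allele or transgene is labelled. Each library held 66.7 to 75.6 M (mega) counts with pre-treatment and 48.8 to 77.2 M with delayed treatment, and mitochondrial genes took 10.6 to 12.9% and 7.65 to 9.50% of them. With delayed treatment, MPTP mice had 57.8 to 77.2 M counts and control mice 48.8 to 55.4 M. Their mitochondrial shares were 7.65 to 7.80% and 8.48 to 9.50%. Neither overlapped, and the part of this in the comparison of these groups was not tested. Values are given as CPM, the count per 1 M counts of the library after TMM scaling, or as the deposited FPKM, which is scaled to gene length as well. The tables of the 2 experiments were made and scaled separately, so that levels were tested within an experiment and never between them.

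Serotonergic neurons make serotonin from tryptophan, pack it into vesicles, release it and take it up again. Tph2 encodes tryptophan hydroxylase, the rate-limiting enzyme of this synthesis in neurons, and Slc6a4 encodes the plasma membrane transporter that recovers serotonin after release. Fev, also called Pet-1, is an ETS transcription factor that switches on both genes in the raphe and keeps them on in the adult. Htr1a encodes an inhibitory receptor that serves as the autoreceptor of raphe neurons and is also carried by many neurons that make no serotonin. Gata2 and Gata3 are zinc finger transcription factors that act in the development of serotonergic neurons, and both also direct the development of midbrain GABAergic neurons.

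The promoters of Tph2, Slc6a4 and Fev are shown since the levels of these 3 genes moved together across mice, as described further on. RefSeq start sites on GRCm38 were found for 6 of 6 genes, and each window holds the 250 bases before the start site, 5′ to 3′ on the strand of the gene. Tph2 has its window at chr10:115185023-115185272 (minus strand), Slc6a4 at chr11:76998347-76998596 (plus strand) and Fev at chr1:74885409-74885658 (minus strand). Capitals mark the letters AGATAA, which GATA factors are known to bind.
Tph2: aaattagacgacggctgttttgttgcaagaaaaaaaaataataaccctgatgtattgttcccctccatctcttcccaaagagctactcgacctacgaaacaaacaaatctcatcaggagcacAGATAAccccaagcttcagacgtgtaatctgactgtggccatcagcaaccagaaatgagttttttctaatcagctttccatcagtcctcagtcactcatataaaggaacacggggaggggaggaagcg
Slc6a4: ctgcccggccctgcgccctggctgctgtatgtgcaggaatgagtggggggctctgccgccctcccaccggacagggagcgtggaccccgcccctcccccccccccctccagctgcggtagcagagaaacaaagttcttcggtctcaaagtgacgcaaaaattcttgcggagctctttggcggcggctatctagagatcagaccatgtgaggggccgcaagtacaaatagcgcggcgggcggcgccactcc
Fev: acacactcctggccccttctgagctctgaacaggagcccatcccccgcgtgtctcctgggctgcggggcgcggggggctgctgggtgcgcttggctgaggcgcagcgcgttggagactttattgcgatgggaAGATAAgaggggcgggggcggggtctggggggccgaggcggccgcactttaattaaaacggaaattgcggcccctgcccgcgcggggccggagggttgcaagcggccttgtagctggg
AGATAA, searched on both strands, began at position -128 of Tph2 and at -118 of Fev, where -1 is the last base before the start site, and was not found in the windows of Slc6a4, Htr1a, Gata2 and Gata3. Of 32851 RefSeq promoter windows of this length, 9.99% hold it. The ETS letters GGAAGT were found in the window of Htr1a alone, at position -86, and 19.7% of all windows hold them. Only these exact letters were searched, so that the other windows were not shown to lack every ETS site. The 2 motifs share no overlapping match in these windows.

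In the tables, which use GRCm38, the genes lie at chr10:115078641-115185022 (Tph2, ENSMUSG00000006764), chr11:76998603-77032340 (Slc6a4, ENSMUSG00000020838), chr1:74881509-74885419 (Fev, ENSMUSG00000055197), chr13:105443639-105448122 (Htr1a, ENSMUSG00000021721), chr6:88193891-88207032 (Gata2, ENSMUSG00000015053) and chr2:9857078-9890034 (Gata3, ENSMUSG00000015619). The annotation gives 13 blocks of exons to Tph2, 15 to Slc6a4, 3 to Fev and 1 to Htr1a. Exons of Gata3 overlap 155 bases of the antisense gene Gm13256 and 77 bases of 9230102O04Rik on the same strand, whose counts were 0 to 7 and 7 to 47 per mouse in the pre-treatment experiment. Gata3 itself had counts of 769 to 1632 there, and the use of strand in counting is not given in the sources used here.

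On the scale per gene length, Tph2 had the highest level of the 6 genes in every mouse. Its FPKM had a median of 13.8 (3.59 to 53.6) over the 9 mice of the pre-treatment experiment and 17.6 (5.96 to 37.3) over the 12 mice of the delayed treatment experiment. In the pre-treatment experiment, Htr1a (median 4.71 FPKM, 3.28 to 5.50), Gata3 (4.63, 2.46 to 5.11) and Slc6a4 (4.5, 0.981 to 18.8) came next. These 3 levels overlapped, so that their order does not stand out from the spread. Gata2 (median 1.0 FPKM, 0.682 to 1.56) and Fev (0.993, 0.415 to 3.23) were lowest and overlapped as well. In the delayed treatment experiment, the median was 7.99 FPKM for Slc6a4 (2.91 to 17.0), 4.95 for Htr1a (4.40 to 6.43), 3.03 for Gata3 (2.53 to 3.32), 1.39 for Gata2 (0.984 to 2.07) and 1.03 for Fev (0.296 to 2.0). There the range of Slc6a4 covered that of Htr1a, Gata3 lay below Htr1a and above Gata2 without overlap, and Gata2 and Fev overlapped.

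The 3 genes that are most restricted to serotonergic neurons, Tph2, Slc6a4 and Fev, varied most between mice of one group. In the pre-treatment experiment, Tph2 was at 26.3, 12 and 72.1 CPM in control mice 1 to 3, at 22.6, 171.4 and 45.3 CPM in MPTP mice, and at 27, 97.4 and 69.4 CPM in irisin+MPTP mice. With delayed treatment, it was at 103.3, 46.8 and 82.4 CPM in control mice, at 67.7, 79.5 and 21.9 CPM in irisin mice, at 120.1, 24.0 and 39.3 CPM in MPTP mice, and at 20.7, 73.7 and 19.3 CPM in MPTP+irisin mice. All groups of an experiment overlapped. The 4 lowest mice with delayed treatment, at 19.3 to 24.0 CPM, were in the 3 treated groups, and the lowest control mouse was at 46.8 CPM. However, 3 of the 4 groups there were treated, and the highest mouse, at 120.1 CPM, was an MPTP mouse. In the pre-treatment experiment, the lowest mouse was a control mouse, at 12 CPM. The highest mouse had 14.3 times the CPM of the lowest in the pre-treatment experiment and 6.20 times in the delayed treatment experiment. In bulk tissue, fewer cells of a type and less RNA per cell cannot be told apart.

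Slc6a4 followed nearly the same order of mice. In the pre-treatment experiment, it was at 13, 5.15 and 44.2 CPM in control mice, at 14.2, 94.6 and 23.2 CPM in MPTP mice and at 16.6, 59.6 and 39.3 CPM in irisin+MPTP mice. With delayed treatment, it was at 75.9, 36.7 and 64.8 CPM in control mice, at 45.2, 58.5 and 16.0 CPM in irisin mice, at 85.9, 17.3 and 27.7 CPM in MPTP mice and at 14.7, 55.8 and 15.8 CPM in MPTP+irisin mice. The lowest mouse of the pre-treatment experiment was control mouse 2 and the highest was MPTP mouse 2, as for Tph2, and they differed 18.4-fold. Fev was the lowest of the 6 genes in counts, with 30 to 406 reads per mouse, and ran from 0.782 CPM in control mouse 2 to 5.82 CPM in MPTP mouse 2 (7.44-fold) and from 0.536 to 3.67 CPM (6.85-fold) in the 2 experiments.

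Htr1a varied little. It was at 22.7, 17.0 and 20.8 CPM in control mice of the pre-treatment experiment, at 22.8, 27.4 and 24.0 CPM in MPTP mice and at 24.1, 25.6 and 27.2 CPM in irisin+MPTP mice. The 3 control mice were all below the other 6 mice of that experiment. In the delayed treatment experiment, its values lay between 22.0 and 32.3 CPM and all groups overlapped. Gata2 was at 4.88, 4.28 and 7.40 CPM in control mice, at 5.71, 7.62 and 9.63 CPM in MPTP mice and at 5.77, 6.09 and 6.53 CPM in irisin+MPTP mice, and ran from 5.96 to 12.5 CPM in the delayed treatment experiment. Gata3 was between 11.3 and 22.9 CPM in the pre-treatment experiment, where control mouse 2 was the lowest, and between 11.2 and 14.9 CPM in the delayed treatment experiment. Control mouse 2 of the pre-treatment experiment was the lowest of the 9 mice for each of the 6 genes.

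**Figure D1:**
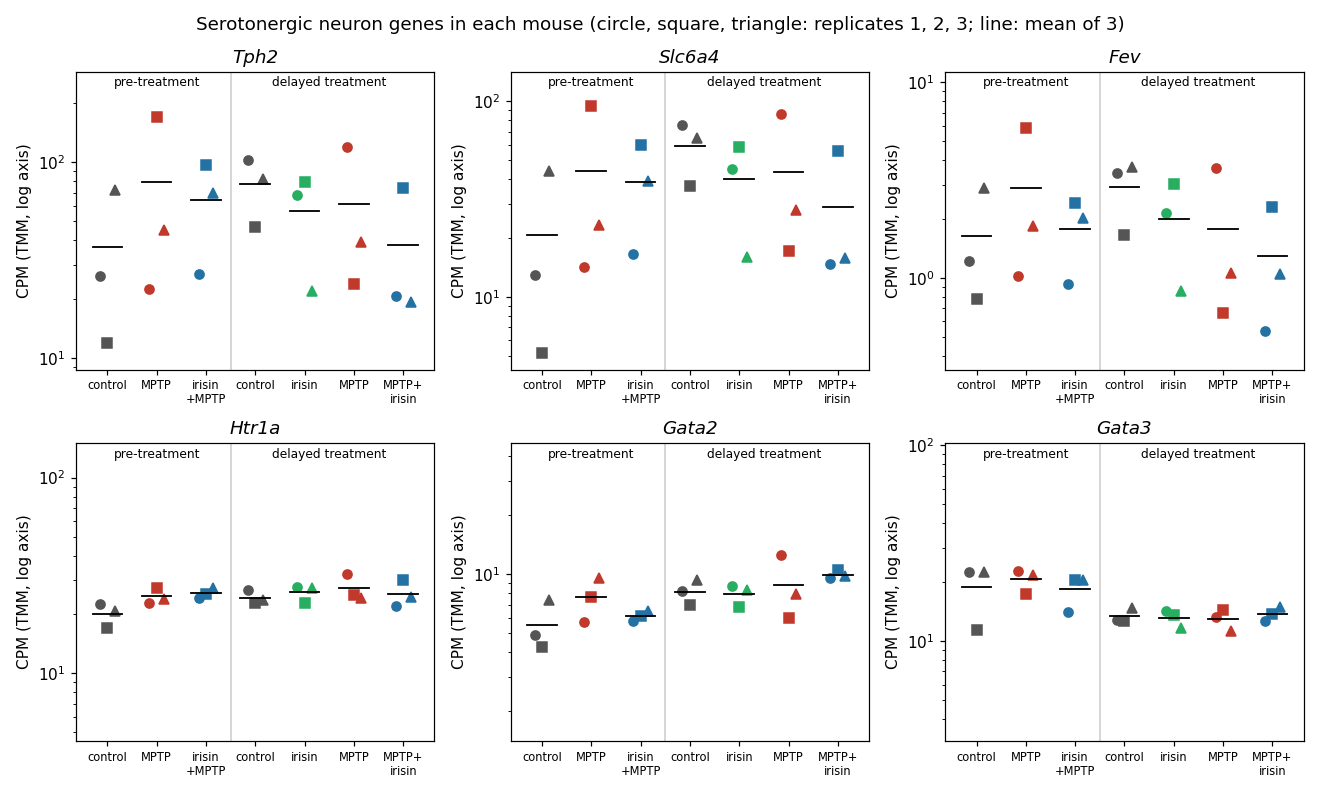
CPM of each gene in each mouse on log axes that span the same ratio in every panel, with 1 symbol per mouse and a line at the mean of 3 mice. Tph2, Slc6a4 and Fev are spread within every group (Tph2 from 12 to 171.4 CPM in the pre-treatment experiment), whereas Htr1a stays between 17.0 and 32.3 CPM over both experiments.

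Set against all tested genes, the spread within groups separated the 6 genes. The SD of log2 CPM within groups was 1.27 for Tph2, 1.33 for Slc6a4 and 1.0 for Fev in the pre-treatment experiment, where the median of all tested genes was 0.27, and 93.0%, 94.0% and 88.3% of tested genes had a smaller SD. In the delayed treatment experiment, it was 1.0, 0.98 and 0.98 with a median of all genes of 0.25, and 87.3%, 86.9% and 86.8% of genes were below. Htr1a (0.15 and 0.18), Gata2 (0.33 and 0.31) and Gata3 (0.40 and 0.14) were nearer to the median gene. The spread of Gata3 was above the median gene in the first experiment and below it in the second.

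Whether the genes vary together across mice was asked with Pearson's r and Spearman's rho on log2 CPM, in 16 relations over both experiments. Tph2 and Slc6a4 had r = 0.992 and rho = 0.983 over 9 mice (exact permutation p = 1.93e-05 and 4.96e-05, adjusted p = 0.000103 and 0.000265) and r = 0.997 and rho = 0.993 over 12 mice (permutation p = 1e-05 for both, the smallest that the resamples can give, adjusted p = 8e-05 and 0.00016). Tph2 and Fev had r = 0.959 and rho = 0.933 over 9 mice (exact permutation p = 0.000105 and 0.00075, adjusted p = 0.000419 and 0.003) and r = 0.951 and rho = 0.930 over 12 mice (permutation p = 1e-05 and 3e-05, adjusted p = 8e-05 and 0.00024). These relations held within groups, with r between 0.952 and 0.998 after the group means were taken off. They also held without the 2 mice farthest from the median of Tph2, with r of 0.987 and 0.932 over 7 mice and 0.997 and 0.969 over 10 mice.

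The other members had smaller r with Tph2, and none of their relations passed the adjusted threshold on log2 CPM, while that of Htr1a with pre-treatment passed on log2(FPKM + 0.1) (r = 0.767, exact permutation test, adjusted p = 0.0447). Htr1a had r = 0.742 and rho = 0.683 with Tph2 over 9 mice (exact permutation p = 0.0191 and 0.0503, adjusted p = 0.0611 and 0.134), which rested on the 2 outermost mice, as r was 0.323 over the other 7, and r = 0.443 and rho = 0.350 over 12 mice (permutation p = 0.151 and 0.265, adjusted p = 0.346 and 0.606). Gata2 had r = 0.665 and rho = 0.767 over 9 mice (exact permutation p = 0.0506 and 0.0214, adjusted p = 0.135 and 0.0684) and r = 0.280 and rho = 0.105 over 12 mice (permutation p = 0.375 and 0.749, adjusted p = 0.601 and 0.880). Gata3 had r = 0.402 and rho = -0.100 over 9 mice (exact permutation p = 0.289 and 0.810, adjusted p = 0.514 and 0.880) and r = 0.138 and rho = 0.0629 over 12 mice (permutation p = 0.663 and 0.850, adjusted p = 0.758 and 0.880). With the group means taken off, r of Htr1a with Tph2 was 0.74 over 9 and 0.608 over 12 mice (permutation tests, adjusted p = 0.0777 and 0.09). That of Gata2 was 0.644 and 0.589 (adjusted p = 0.112 and 0.09), and that of Gata3 was 0.39 and 0.237 (adjusted p = 0.401 and 0.481). The values over 12 mice were thus higher than without that step, and none passed. Gata2 and Gata3, which often act together, had r = 0.475 and rho = 0.0667 over 9 mice (exact permutation p = 0.199 and 0.880, adjusted p = 0.397 and 0.880) and r = 0.0985 and rho = 0.238 over 12 mice (permutation p = 0.759 and 0.454, adjusted p = 0.759 and 0.808). The first of these changed sign to -0.141 without the 2 outermost mice.

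The markers of dopaminergic neurons Th, tyrosine hydroxylase, and Slc6a3, the dopamine transporter, were set beside Tph2 in the same way. Th had r = 0.169 and rho = 0.317 with Tph2 over 9 mice (exact permutation p = 0.660 and 0.410, adjusted p = 0.758 and 0.808) and r = 0.243 and rho = 0.140 over 12 mice (permutation p = 0.435 and 0.665, adjusted p = 0.633 and 0.880). With the group means taken off, r of Th was 0.655 over 9 mice (exact permutation test, adjusted p = 0.112) and -0.266 over 12 mice (permutation test, adjusted p = 0.471), and that of Slc6a3 was 0.351 and -0.406. Without that step, Slc6a3 had r = -0.180 and rho = -0.133 over 9 mice (exact permutation p = 0.638 and 0.744, adjusted p = 0.758 and 0.880) and r = 0.110 and rho = 0.147 over 12 mice (permutation p = 0.727 and 0.649, adjusted p = 0.759 and 0.880). The number of mice limits how weak a relation can be detected.

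**Figure D2:**
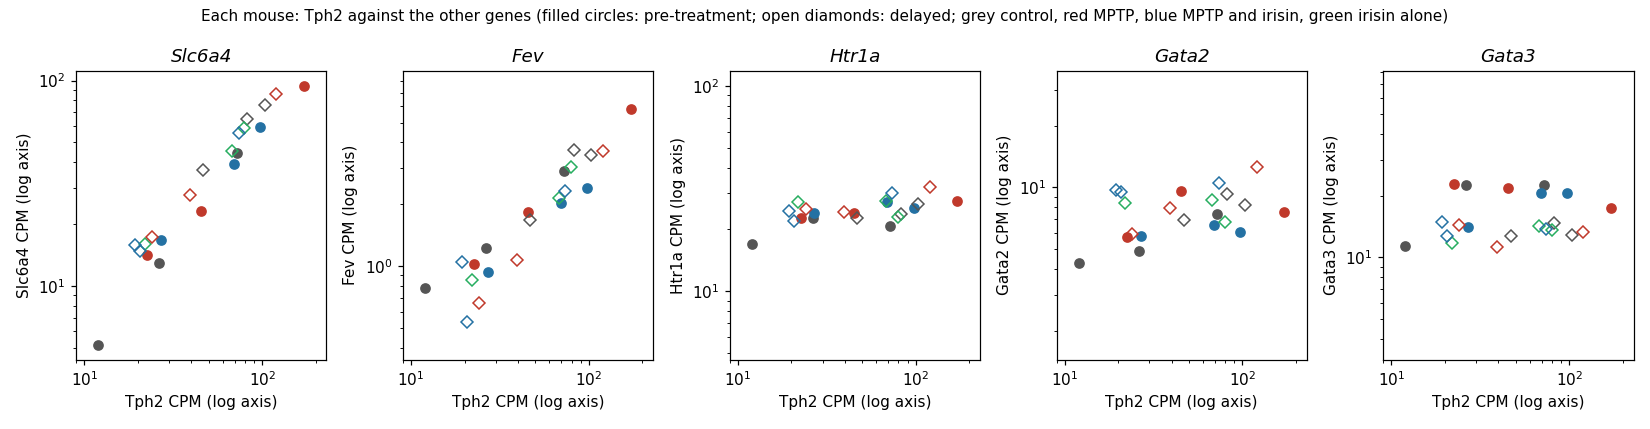
Each point is 1 mouse, with the CPM of Tph2 on the x axis and that of another gene on the y axis, both on log axes that span the same ratio in every panel. Slc6a4 (r = 0.992 and 0.997) and Fev (r = 0.959 and 0.951) rise along a line with Tph2, and Htr1a, Gata2 and Gata3 vary far less (Htr1a 1.61-fold and 1.46-fold between mice).

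Whether MPTP changed these genes was asked in the pre-treatment experiment by comparing MPTP mice with control mice. Tph2 had a mean of 79.7 ± 80.2 CPM (SD, n = 3) in MPTP mice and 36.8 ± 31.4 CPM in control mice, Slc6a4 44.0 ± 44.1 and 20.8 ± 20.7 CPM, and Fev 2.89 ± 2.57 and 1.63 ± 1.11 CPM. The log2 fold change was 1.12 ± 0.95 (SE) for Tph2 (95% interval -1.12 to 3.35), 1.08 ± 1.0 for Slc6a4 and 0.82 ± 0.72 for Fev. These means rested on 1 mouse, since without MPTP mouse 2 the 3 values were -0.12, -0.15 and -0.19. Htr1a, at 24.7 ± 2.40 against 20.2 ± 2.87 CPM, had a log2 fold change of 0.29 ± 0.12 (95% interval 0.02 to 0.57), with an unadjusted p of 0.0368 from the quasi-likelihood test of edgeR and an adjusted p of 0.838 (Benjamini-Hochberg, over all tested genes). Its MPTP and control mice did not overlap, by the narrow margin of 22.8 against 22.7 CPM. Gata2 had 0.47 ± 0.24 and Gata3 0.13 ± 0.27, the latter turning to -0.13 without control mouse 2. None of the 6 genes passed the adjusted threshold of 0.05, as 0.0309% of the 22641 tested genes did. At an unadjusted p under 0.05, 1 of 6 passed against 5.91% of all tested genes, and in 1 of 6 the groups did not overlap against 11.6% of all.

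In irisin+MPTP mice against MPTP mice, the means were 64.6 ± 35.4 and 79.7 ± 80.2 CPM for Tph2, 38.5 ± 21.5 and 44.0 ± 44.1 CPM for Slc6a4, and 1.79 ± 0.76 and 2.89 ± 2.57 CPM for Fev. The log2 fold change was -0.30 ± 0.94 for Tph2 (95% interval -2.52 to 1.91), -0.19 ± 0.99 for Slc6a4 and -0.69 ± 0.72 for Fev, and these became 0.92, 1.04 and 0.32 without MPTP mouse 2. Htr1a had 0.05 ± 0.12, Gata2 -0.32 ± 0.24 and Gata3 -0.17 ± 0.27. None of the 6 genes passed at the adjusted threshold (0.102% of all tested genes did) or at an unadjusted p under 0.05 (6.13%), and the groups overlapped for all 6 (14.2% of all tested genes had no overlap).

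In irisin+MPTP mice against control mice, Htr1a was at 25.6 ± 1.52 and 20.2 ± 2.87 CPM, with a log2 fold change of 0.35 ± 0.12 (95% interval 0.07 to 0.62, edgeR unadjusted p = 0.0183, adjusted p = 0.590) and no overlap between the groups. Without control mouse 2 the value was 0.24. The comparison shares its control mice with that of MPTP and control mice, so that the higher values of Htr1a in both were not independent. The other log2 fold changes were 0.81 ± 0.94 for Tph2, 0.89 ± 1.0 for Slc6a4, 0.13 ± 0.72 for Fev, 0.15 ± 0.24 for Gata2 and -0.03 ± 0.27 for Gata3. None of the 6 passed the adjusted threshold (0.0795% of all tested genes did), 1 of 6 had an unadjusted p under 0.05 (7.04% of all), and 1 of 6 had groups without overlap (13.6% of all).

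In the delayed treatment experiment, MPTP mice, which had received ddH2O for 5 days after the toxin, were compared with control mice. Tph2 was at 61.1 ± 51.6 CPM in MPTP mice and 77.5 ± 28.6 CPM in control mice, with a log2 fold change of -0.34 ± 0.78 (95% interval -2.12 to 1.44). This is the opposite sign to the pre-treatment experiment, and both intervals cover 0. Slc6a4 had -0.44 ± 0.77 and Fev -0.72 ± 0.72. Htr1a, at 27.2 ± 4.39 and 24.4 ± 1.96 CPM, had 0.16 ± 0.14 (95% interval -0.14 to 0.46), Gata2 0.11 ± 0.23 and Gata3 -0.05 ± 0.12. None of the 6 passed at the adjusted threshold (0.141% of the 21922 tested genes did) or at an unadjusted p under 0.05 (8.23%), and no member had groups without overlap (16.2%).

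Irisin mice were compared with control mice to ask what irisin did without MPTP. Tph2 was at 56.4 ± 30.4 CPM with irisin and 77.5 ± 28.6 CPM in control mice, with a log2 fold change of -0.46 ± 0.78. Slc6a4 (39.9 ± 21.8 and 59.2 ± 20.2 CPM) had -0.57 ± 0.78, Fev -0.54 ± 0.72, Htr1a 0.09 ± 0.14, Gata2 -0.04 ± 0.23 and Gata3 -0.03 ± 0.12. The fold change had a 95% interval of 0.862 to 1.31 for Htr1a and 0.815 to 1.18 for Gata3, while that of Tph2 ran from 0.212 to 2.5. Of the 6 genes, 0 passed at the adjusted threshold in edgeR (0.105% of all tested genes did), 0 at an unadjusted p under 0.05 (8.88%) and 0 had groups without overlap (15.1%).

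Delayed irisin treatment was compared with MPTP alone. In MPTP+irisin mice, Tph2 was at 37.9 ± 31 CPM, Slc6a4 at 28.8 ± 23.4 CPM and Fev at 1.30 ± 0.92 CPM, and the log2 fold changes against MPTP mice were -0.69 ± 0.78, -0.60 ± 0.78 and -0.46 ± 0.73. Without MPTP mouse 1, the highest mouse of that experiment for Tph2, they turned to 0.26, 0.36 and 0.59. Htr1a had -0.09 ± 0.14, Gata2 0.18 ± 0.23 and Gata3 0.09 ± 0.12. None of the 6 passed at the adjusted threshold (0.00912% of all tested genes did) or at an unadjusted p under 0.05 (3.68%), and the groups overlapped for all 6 (10.7% had no overlap).

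Against irisin mice and against control mice, the MPTP+irisin mice had lower mean levels of Tph2, Slc6a4 and Fev, within the spread. The log2 fold changes against control mice were -1.03 ± 0.79 for Tph2 (95% interval -2.83 to 0.77, unadjusted p = 0.225 and adjusted p = 0.756 from edgeR), -1.04 ± 0.78 for Slc6a4 and -1.17 ± 0.73 for Fev, and those against irisin mice were -0.57 ± 0.78, -0.47 ± 0.78 and -0.63 ± 0.73. Gata2 was at 9.52, 10.6 and 9.75 CPM in MPTP+irisin mice, at 8.69, 6.79 and 8.36 CPM in irisin mice and at 8.20, 6.97 and 9.32 CPM in control mice. All 3 MPTP+irisin mice were therefore above the mice of both other groups, with log2 fold changes of 0.32 ± 0.23 (unadjusted p = 0.180, adjusted p = 1 from edgeR) against irisin mice and 0.28 ± 0.23 (unadjusted p = 0.235, adjusted p = 0.765) against control mice. Htr1a had -0.02 ± 0.14 and 0.07 ± 0.14, and Gata3 0.07 ± 0.12 and 0.04 ± 0.12. Against irisin mice, 0 of 6 passed at the adjusted threshold in edgeR (0.00456% of all tested genes did), 0 at an unadjusted p under 0.05 (3.60%), and 1 of 6 had groups without overlap (8.69%). Against control mice these were 0 of 6 (0.114%), 0 of 6 (9.23%) and 1 of 6 (14.6%).

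Whether irisin acted differently with and without MPTP was asked as the interaction of both agents in the delayed treatment experiment. The difference of the 2 log2 fold changes was -0.23 ± 1.10 for Tph2 (95% interval -2.75 to 2.28), -0.03 ± 1.09 for Slc6a4, 0.08 ± 1.03 for Fev, -0.18 ± 0.20 for Htr1a, 0.21 ± 0.32 for Gata2 and 0.11 ± 0.17 for Gata3. Of the 6 genes, 0 passed the adjusted threshold in edgeR (0.0411% of all tested genes did) and 0 had an unadjusted p under 0.05 (5.30%). In each of the comparisons, DESeq2 and limma on log2 FPKM also called 0 of 6 genes.

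**Figure D3:**
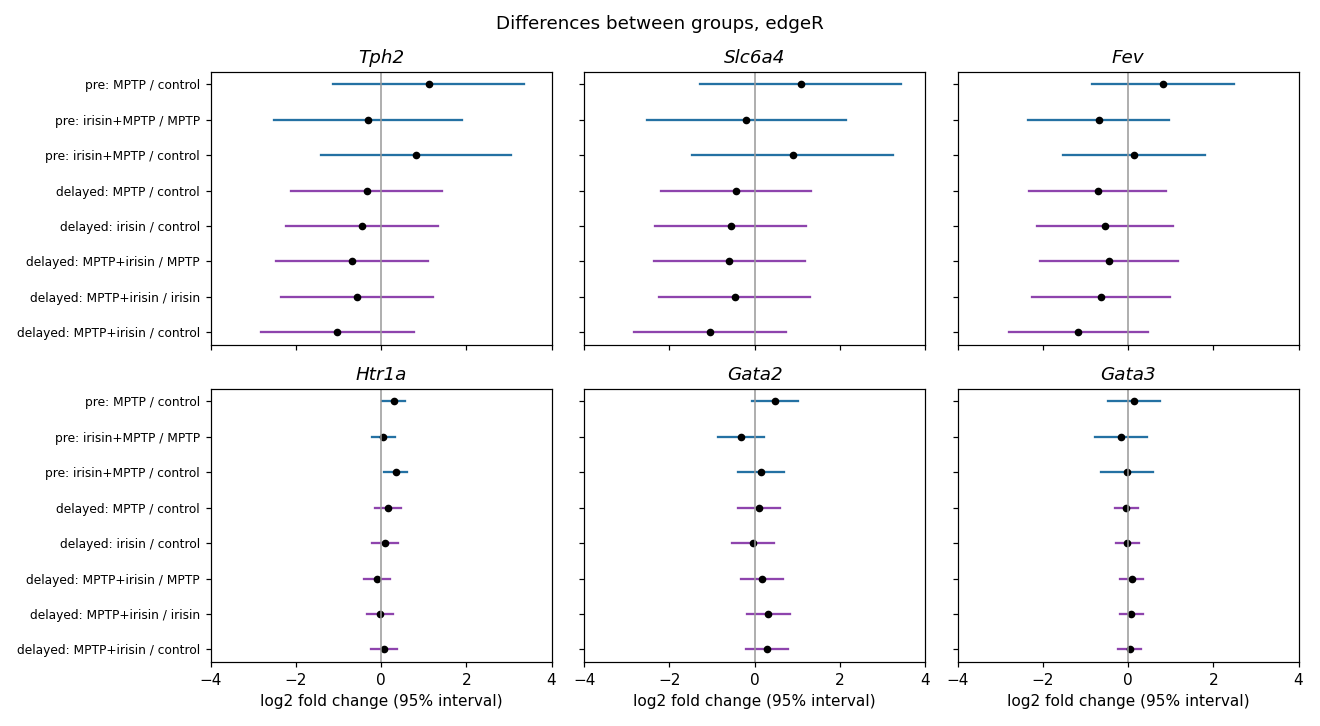
Log2 fold change of each gene between groups (points) with its 95% interval from edgeR (lines), blue for the pre-treatment and purple for the delayed treatment experiment. The intervals of Tph2, Slc6a4 and Fev are wide (Tph2 -1.12 to 3.35 for MPTP against control mice with pre-treatment). Those of Htr1a, Gata2 and Gata3 are narrower (Gata2 -0.07 to 1.02 in the same comparison). Only those of Htr1a against control mice in the pre-treatment experiment leave out 0 (0.02 to 0.57 and 0.07 to 0.62).

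The other genes of the serotonin pathway were taken from lists, and pairs of values for them are given with pre-treatment first and delayed treatment second. Of 9 genes for the synthesis, transport and breakdown of serotonin, all were tested, and none rose or fell past the adjusted threshold in any comparison. Their median log2 fold change between MPTP and control mice was 0.25 in the pre-treatment and -0.27 in the delayed treatment experiment, where the medians of all tested genes were -0.0018 and -0.0013. Qdpr, which regenerates the cofactor of tryptophan hydroxylase, had -0.71 ± 0.50 in the delayed treatment experiment, Slc18a2, the vesicular transporter of monoamines, -0.40 ± 0.25, and Maoa, a monoamine oxidase, 0.02 ± 0.08. Ddc, the decarboxylase that completes the synthesis of serotonin and dopamine, had -0.77 ± 0.27 in MPTP+irisin mice against control mice (unadjusted p = 0.0175, adjusted p = 0.453 from edgeR) and Slc18a2 had -0.69 ± 0.25 (0.0228 and 0.475). In that comparison 3 of the 9 genes had an unadjusted p under 0.05 in edgeR, against 9.23% of all tested genes. The third was Slc29a4, a transporter of monoamines that is not on the list of dopaminergic markers. Ddc and Slc18a2 are dopaminergic markers too. Of 13 dopaminergic markers, 8 had an unadjusted p under 0.05 in that comparison, with a median log2 fold change of -0.49. The part of dopaminergic neurons in these values was not tested. Slc29a4 had -0.48 ± 0.13 in irisin mice against control mice (unadjusted p = 0.00314, adjusted p = 0.364 from edgeR). Ddc and Slc29a4 were named after their values were seen.

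Of 13 serotonin receptor genes other than Htr1a, 12 and 11 were tested in the 2 experiments, as Htr3b (both) and Htr2b (delayed treatment) had too few counts. None passed the adjusted threshold. Their medians between MPTP and control mice were 0.06 and 0.01, and the most abundant were Htr2c (0.04 ± 0.08 and 0.01 ± 0.06), Htr1b (0.08 ± 0.14 and 0.03 ± 0.10) and Htr2a (0.16 ± 0.11 and -0.08 ± 0.13). Of 7 other regulators of serotonergic identity, none passed, with medians of 0.21 and 0.0011. En1 and En2, homeobox genes of the midbrain and hindbrain border, had 0.24 ± 0.21 and 0.09 ± 0.23 in the pre-treatment experiment. Nkx2-2, a homeobox gene of ventral progenitors that oligodendrocyte precursors also express, had -0.86 ± 0.15 between MPTP and control mice (unadjusted p = 0.000256, adjusted p = 0.279) with pre-treatment and 0.0011 ± 0.17 with delayed treatment.

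Markers of the neighbouring cell types were read in the same fits. Of 13 dopaminergic markers, none passed the adjusted threshold, and 1 and 7 had an unadjusted p under 0.05 between MPTP and control mice of the pre-treatment and delayed treatment experiments, where 5.91% and 8.23% of all tested genes did. Th was at 63.3, 59.2 and 50.9 CPM in control mice of the delayed treatment experiment and at 31, 31.5 and 46.0 CPM in MPTP mice. The groups did not overlap, with a log2 fold change of -0.68 ± 0.14 (unadjusted p = 0.000413, adjusted p = 0.153 from edgeR). Th had -0.25 ± 0.27 in the pre-treatment experiment. Slc6a3 had -0.68 ± 0.24 with pre-treatment (unadjusted p = 0.0227, adjusted p = 0.833 from edgeR) and -1.08 ± 0.41 with delayed treatment (0.0266 and 0.531), and was the 1 marker under 0.05 in the former. Aldh1a1, the most abundant marker of this list, had -0.09 ± 0.19 and -0.22 ± 0.07, and Ret, a receptor of neurotrophic factors, -0.09 ± 0.20 and -0.40 ± 0.09. The summed level of the list was 839 to 889 CPM in control mice and 581 to 730 CPM in MPTP mice of the delayed treatment experiment, and 612 to 937 and 630 to 978 CPM in the pre-treatment experiment. No marker of the list was at 0 in every mouse of a group. The lowest was Pitx3, with a mean over all mice of 0.27 CPM with pre-treatment and 0.35 CPM with delayed treatment.

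Of 8 genes of midbrain GABAergic neurons, among them partners of Gata2 and Gata3, none passed the adjusted threshold, with medians of 1.9e-05 and -0.03 between MPTP and control mice. Gad1 and Gad2, the enzymes that make GABA, had -0.09 ± 0.22 and 0.07 ± 0.11 in the pre-treatment experiment, and Slc32a1, its vesicular transporter, had 0.0031 ± 0.06. Of 4 noradrenergic markers none passed, with medians of 0.53 and -0.12. Dbh, dopamine beta-hydroxylase, had 0.68 ± 0.39 and -0.14 ± 0.19, and the noradrenaline transporter Slc6a2 0.38 ± 0.48 and 0.14 ± 0.18. Their summed level was 9.38 to 39.6 CPM in control mice of the pre-treatment experiment, 29.1 to 40.8 CPM in MPTP mice and 39.8 to 49.97 CPM in irisin+MPTP mice. Of 5 cholinergic markers none passed, with medians of -0.14 and -0.10, Slc5a7, the choline transporter, having -0.14 ± 0.72 and -0.10 ± 0.54. Of 6 endothelial markers none passed, with medians of -0.15 and 0.05, and Flt1, a receptor of vascular growth factors, had 0.10 ± 0.11 and 0.01 ± 0.06. Cldn5, a tight junction protein of these cells, had -0.44 ± 0.09 with pre-treatment (unadjusted p = 0.000845, adjusted p = 0.547 from edgeR) and -0.16 ± 0.11 with delayed treatment, and was named after its values were seen. At an unadjusted p under 0.05, between MPTP and control mice, Nkx2-2, Cldn5 and dopaminergic markers were the genes of these lists that passed. For comparison, the 6 serotonergic neuron genes had medians of 0.65 (pre-treatment) and -0.19 (delayed treatment). Among them, Tph2, Slc6a4 and Fev had the highest values with pre-treatment. Levels of these genes moved together across mice, so that they do not count as independent. Each of their values turned negative without MPTP mouse 2, as given above.

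Which genes vary like Tph2 was read from the smaller of its r over 9 and its r over 12 mice, among 20785 genes tested in both experiments, as a description. The median of this measure over all genes was -0.189. Slc6a4 (0.992) and Fev (0.951) ranked 1 and 2, while Htr1a (0.443) ranked 433, Gata2 (0.280) 1363 and Gata3 (0.138) 2979. The 5 genes that came next to the members were Slc17a8, a vesicular glutamate transporter that a part of the raphe neurons carries (0.939), Gchfr, a regulator of the enzyme that makes the cofactor of Tph2 (0.936), Cartpt, a neuropeptide precursor (0.897), Dnali1, a dynein light chain of cilia (0.883), and Nme9 (0.871). Slc6a4, Fev, Slc17a8 and Gchfr were the 4 genes with r over 0.9 in both experiments. Slc17a8 was at 2.71, 33.3 and 7.38 CPM in the 3 MPTP mice of the pre-treatment experiment, where Tph2 was at 22.6, 171.4 and 45.3 CPM.

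The 9 genes for the synthesis, transport and breakdown of serotonin differed among themselves in r with Tph2. Of these, 5 had r of 0.752 to 0.916 over both experiments, namely Slc22a3, a transporter of monoamines (0.869 and 0.813), Gch1, the enzyme that makes the cofactor (0.782 and 0.814), Slc18a2 (0.778 and 0.916), Ddc (0.776 and 0.877) and Maob, a monoamine oxidase of serotonergic neurons and astrocytes (0.856 and 0.752). The other 4 had lower r, with Slc29a4 at 0.462 and 0.466, Qdpr at 0.405 and -0.105, Tph1, the tryptophan hydroxylase of the gut and the pineal gland, at 0.402 and 0.0243, and Maoa at -0.332 and 0.0495. Among the regulators that dopaminergic neurons carry as well, En1 had 0.761 and 0.773, Lmx1b 0.540 and 0.742, and Foxa2 0.557 and 0.460. No test of a difference between these values was run, and the order was seen before the genes were named.

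Markers of other cells near the midline were looked up after Cartpt and the cilia gene had come up. The 6 ependymal markers had r with Tph2 of 0.757 (Foxj1) to 0.921 (Ccdc153) over 9 mice and 0.508 (Enkur) to 0.841 (Tmem212) over 12 mice. Tmem212 and Dynlrb2 of this list ranked 10 and 13 in the likeness to Tph2 above, so that the list was not independent of that ranking. The share of all tested genes with a positive r was not computed. The summed level of the 6 markers was 22.6 to 46.8 CPM in control mice, 25.7 to 49.4 CPM in MPTP mice and 25.6 to 42.9 CPM in irisin+MPTP mice of the pre-treatment experiment. With delayed treatment it was 44.4 to 52.6 CPM in control, 40.5 to 51.0 CPM in irisin, 33.7 to 49.6 CPM in MPTP and 38.5 to 48.3 CPM in MPTP+irisin mice, and none of the 6 was at 0 in a mouse. Ucn and Cartpt, peptides of the Edinger-Westphal nucleus, a midline nucleus of the midbrain, had r of 0.914 and 0.952 over 9 mice and 0.780 and 0.897 over 12 mice. Their summed level ran from 4.5 to 107.8 CPM in the pre-treatment and from 9.12 to 55.8 CPM in the delayed treatment experiment, with Ucn at 0 in at least 1 mouse of each. Cartpt ranked 5 in the likeness to Tph2 above, so that its r was not independent of that ranking either. The part of these cells in the spread of Tph2 was not tested.

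**Figure D4:**
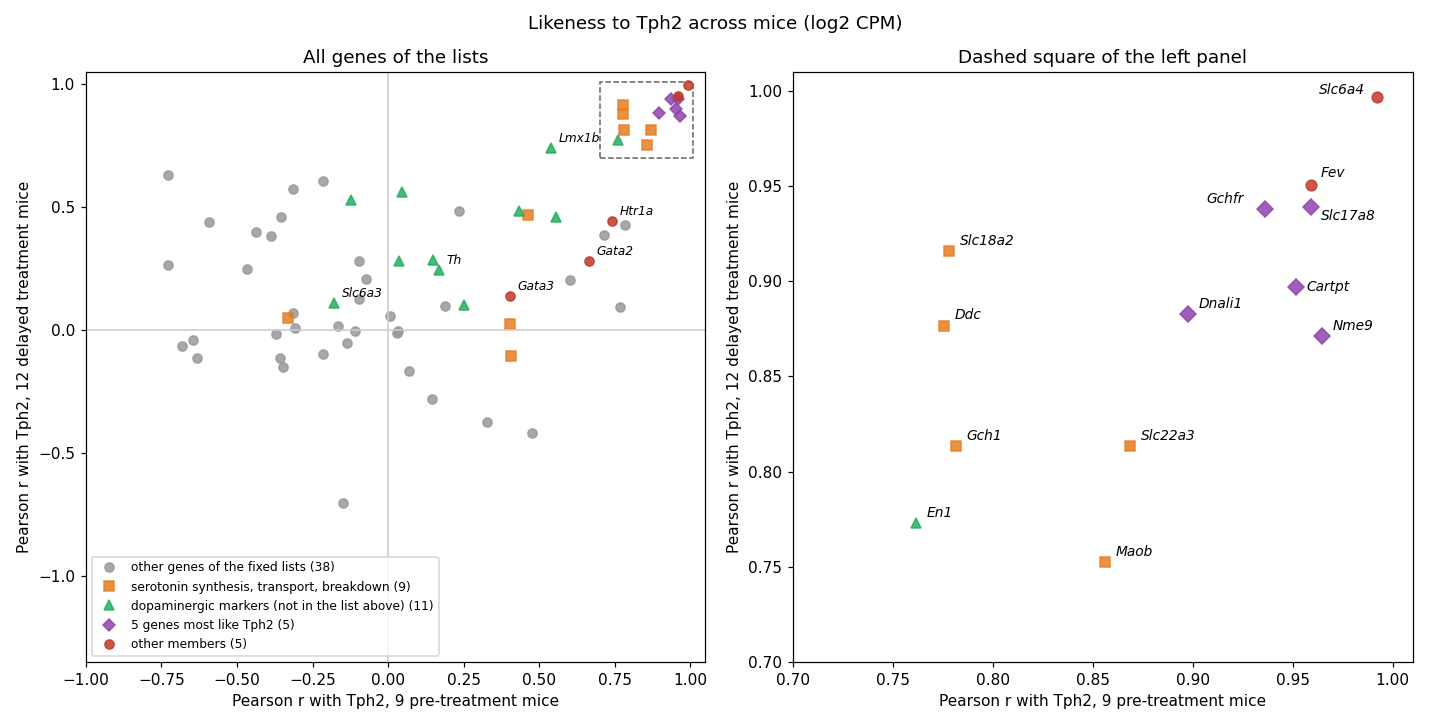
Each point is 1 gene, at its Pearson r with Tph2 over 9 mice of the pre-treatment experiment (x axis) and over 12 mice of the delayed treatment experiment (y axis), and the right panel enlarges the dashed square of the left. Slc6a4 (0.992 and 0.997) and Fev (0.959 and 0.951) lie in the upper right corner with Slc17a8 and Gchfr, whereas Htr1a, Gata2, Gata3, Th and Slc6a3 lie away from it.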

How the data were processed

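Processed tables of 2 experiments with 9 and 12 mice were used. The authors counted reads per gene with featureCounts after sequencing on an Illumina NovaSeq instrument, and deposited raw counts and FPKM of each gene in each mouse. The submitters' processing notes name HISAT, StringTie, edgeR and the build mm9, whereas the gene coordinates in the tables fit GRCm38: 92.0% and 94.3% of the genes have the start and end of GENCODE M21, all 6 genes reported here among them. The use of strand and the tool that made the FPKM are not given in the sources used here.

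Groups were compared on the counts with edgeR 4.0.16 (R 4.3.3). Genes were filtered with filterByExpr (least count 10, least total 15), which left 22641 and 21922 genes, and TMM scaling and glmQLFTest with robust fits were applied, two-sided, on all groups of an experiment at once. Benjamini-Hochberg adjustment covered every tested gene, and 0.05 was the threshold. The SE is the log2 fold change divided by the square root of F. Correlations used log2 CPM with a prior count of 2, exact permutations for 9 mice and 100000 resamples for 12 mice (scipy 1.17.1). Alternatives were DESeq2 1.42.0, limma 3.58.1 on log2(FPKM + 1 or 0.1), median-ratio scaling, all genes with any count, only the compared groups, the replicate number as a block, and leaving out each mouse. The edgeR step was tried on simulated counts for MPTP against control mice of each experiment, and the other steps were not.

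Mice were grouped by the labels, which give each sample as a mouse of its own. No 2 mice of a group agreed within sampling noise (smallest chi-square per gene 37.5). Genes named are the 6 members, up to 3 genes with the highest mean level and any gene past the threshold in each of 8 marker lists, and the 5 genes most like Tph2. Th and Slc6a3 were set for the correlations, and other genes and the ependymal and Edinger-Westphal markers were named after values were seen. These genes and lists were chosen with earlier results of these data known. The columns of GO and KEGG terms were not used.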

Additional observations from a re-analysis of the deposited data

How the results depend on the processing

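Across 54 values, which are the log2 fold changes of 6 genes in 9 comparisons, the number of genes past the adjusted threshold stayed at 0 with median-ratio scaling, with all genes with any count, with DESeq2, with limma on log2(FPKM + 1) and log2(FPKM + 0.1), with only the compared groups in the fit, with the replicate number as a block, and without each mouse in turn. The smallest adjusted p over all of these was 0.474, for Htr1a in irisin+MPTP against control mice, reported above as 0.590. Of the 54 values, 30 changed sign without 1 mouse, none of which had passed the threshold, and the cause was not tested.

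In MPTP against control mice of the pre-treatment experiment, the range without 1 mouse was -0.12 to 2.06 for Tph2, -0.15 to 2.28 for Slc6a4, -0.19 to 1.52 for Fev and -0.13 to 0.28 for Gata3. In irisin+MPTP against MPTP mice, the range without 1 mouse was -0.74 to 0.92 for Tph2, -0.65 to 1.04 for Slc6a4, -1.09 to 0.32 for Fev and -0.0057 to 0.13 for Htr1a. In irisin+MPTP against control mice, the range without 1 mouse was -0.20 to 0.83 for Fev, -0.0025 to 0.42 for Gata2 and -0.29 to 0.13 for Gata3. In MPTP against control mice of the delayed treatment experiment, the range without 1 mouse was -1.29 to 0.039 for Tph2, -0.23 to 0.33 for Gata2 and -0.13 to 0.046 for Gata3. In irisin against control mice, the range without 1 mouse was -0.14 to 0.069 for Gata2 and -0.084 to 0.053 for Gata3. In MPTP+irisin against MPTP mice, the range without 1 mouse was -1.61 to 0.26 for Tph2, -1.51 to 0.36 for Slc6a4, -1.17 to 0.59 for Fev, -0.22 to 0.048 for Htr1a, -0.040 to 0.52 for Gata2 and -0.0034 to 0.17 for Gata3. In MPTP+irisin against irisin mice, the range without 1 mouse was -0.15 to 0.074 for Htr1a and -0.010 to 0.13 for Gata3. In MPTP+irisin against control mice, the range without 1 mouse was -0.062 to 0.16 for Htr1a and -0.014 to 0.12 for Gata3. In the interaction, the range without 1 mouse was -1.15 to 0.72 for Tph2, -0.95 to 0.92 for Slc6a4, -0.62 to 1.13 for Fev and -0.0018 to 0.55 for Gata2.

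Under limma on log2(FPKM + 1) and log2(FPKM + 0.1), the value in irisin+MPTP against MPTP mice turned to 0.00093 and 0.014 for Tph2 and to 0.063 and 0.099 for Slc6a4, that of Gata3 in irisin+MPTP against control mice to 0.0056 and 0.017, and the interaction of Slc6a4 to 0.11 and 0.12. With the replicate number as a block, Fev and Gata3 in irisin+MPTP against control mice turned to -0.012 and 0.021, and the interactions of Tph2 and Slc6a4 to 0.0089 and 0.20. The block called 1 to 17 of all tested genes per comparison, against 1 to 31 without it. Same-numbered mice were different animals whose deviations from the group means correlated by -0.0776 to 0.101, so that the numbers were not taken to pair the mice. DESeq2 without a filter called 25 to 167 genes per comparison, edgeR without 1 mouse 0 to 35, and the other settings 1 to 34. The count of 0 was for MPTP+irisin against irisin mice without irisin mouse 2, where 1 gene was called with all mice.

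Of the correlations, those of Tph2 with Slc6a4 and with Fev kept their sign and passed under each alternative. Taking off the group means turned Tph2 with Slc6a3 to 0.351 and -0.406 in the 2 experiments, and Tph2 with Th to -0.266 in the delayed treatment experiment. Leaving out the 2 outermost mice turned Tph2 with Slc6a3 to 0.00934 and -0.178, Tph2 with Th to -0.0123 in the delayed treatment experiment and Gata2 with Gata3 to -0.141 in the pre-treatment experiment. On log2(FPKM + 0.1), Tph2 with Htr1a in the pre-treatment experiment passed (r = 0.767, permutation test, adjusted p = 0.0447). With 3 mice per group and the spread of Tph2, Slc6a4 and Fev, their 95% intervals were wide and held both rises and falls. The size of change that could be detected was not computed.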

Other observations

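The number of Slc6a4 reads per Tph2 read, which does not depend on library scaling, was lower in every mouse of the pre-treatment experiment than in any mouse of the delayed treatment experiment. It was 0.430 to 0.628 (median 0.566) over 9 mice of the pre-treatment experiment and 0.668 to 0.814 (median 0.733) over 12 mice of the delayed treatment experiment, a range of 1.46-fold and 1.22-fold. The tables were made separately, so that the experiment and its processing cannot be told apart, and no test was run. Fev reads per Tph2 read were 0.0247 to 0.0653 and 0.0259 to 0.0543, which overlapped. Htr1a reads per Tph2 read differed 8.90-fold and 4.95-fold between the mice of each experiment.

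Gata3 reads per Gata2 read were 2.26 to 4.64 (median 3.03) in the pre-treatment and 1.07 to 2.42 (median 1.55) in the delayed treatment experiment, with a small overlap. Among serotonin receptors, Htr1d and Htr5b, named after their values were seen, had r of 0.785 and 0.767 with Tph2 over 9 mice and of 0.427 and 0.0921 over 12 mice. These were the highest r of the list over 9 mice, and other receptors went the other way. Htr2c, Htr6 and Htr1b had r of -0.682, -0.645 and -0.633 over 9 mice and of -0.0664, -0.042 and -0.113 over 12 mice. Over 12 mice the highest r was that of Htr7, at 0.608, which had -0.216 over 9 mice. Htr5b and Htr6 were low, with mean levels of 0.78 and 0.94 CPM in the pre-treatment experiment.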
